A study of Homo sapiens with 2 samples.

Results

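The DNA replication machinery was described in 59 genes, chosen by gene symbol from the textbook steps of origin recognition, licensing, helicase activation, DNA synthesis, clamp loading, fork protection and chromatin assembly behind the fork. They were chosen with earlier results of these data known. All 59 were among the 53737 genes of the tables, and all 59 had at least 1 per-million unit in a library and were compared. The samples were 1 library of slow-cycling cells (SCCs) and 1 library of cells that are not slow-cycling (non-SCCs). Both came from SK-ES-1, an established human cell line of Ewing sarcoma, a bone and soft tissue tumour, with the source tissue labelled bone and the genotype labelled WT in each. The method that separated the SCCs is not given in the sources used here. There were no replicates: each group is 1 library of 1 cell line, and a difference between these 2 libraries has neither a replicate error nor a p-value.

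Replication starts at origins, where the origin recognition complex (ORC) with CDC6 and CDT1 loads the ring-shaped MCM2-7 helicase on DNA during G1 phase. In S phase the kinase CDC7 with DBF4 and the factors CDC45 and GINS turn the loaded ring into an active helicase, and DNA polymerases alpha, delta and epsilon copy both strands with the sliding clamp PCNA. Many of these genes are targets of E2F transcription factors, which switch them on as cells commit to S phase. Geminin, encoded by GMNN, binds CDT1 and blocks a further round of loading.

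Levels are per-million units, obtained from the deposited log2 values by taking 2 to the power of the value and subtracting 1. The log2 ratio of a gene is its log2(level + 1) in SCCs minus that in non-SCCs, so a negative ratio means a lower level in SCCs. Table entries above 0 numbered 14606 in the SCC library and 14197 in the non-SCC library, and the read depth was unknown. The Ewing sarcoma markers NR0B1, NKX2-2, CD99, FLI1, STEAP1 and PRKCB were all above 0, with a summed level of 879.2 units in SCCs and 934.5 in non-SCCs. Of these 6, 2 were higher in SCCs, and the lowest log2 ratio was that of NR0B1, at -0.30. All 4 endothelial markers and the immune markers PTPRC and CD3E were listed at 0 in both libraries. Of 8 fibroblast and pericyte markers, 7 were higher in SCCs, with a summed level of 223.6 units in SCCs and 206.7 in non-SCCs, while PDGFRA was listed at 0 in both. The 7 include LUM, with 0.0175 units in SCCs and 0 in non-SCCs. Most of both sums came from COL1A2, with 143.9 units in SCCs and 138.9 in non-SCCs. Of 6 immune markers, 4 were higher in SCCs, with sums of 15.5 and 9.66 units in SCCs and non-SCCs. The part of these markers in the replication differences was not tested.

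Because many of these genes are known E2F targets, promoter sequence from RefSeq (GRCh38.p14) was read for the members with the lowest and the highest log2 ratio. Of the 59 genes, 52 had at least 1 promoter window, which covers 250 bases before and 50 after an annotated start. Shown are the 250 bases before the start for CDCA7, MCM6 and CHAF1B, the 3 members with a window and the lowest ratios, and for ORC4 and CDT1, the 2 with the highest. Capitals mark matches to the E2F-type letters TTTCCCGC, TTTCGCGC, TTTGCCGC or TTTGGCGC on either strand. The windows lie at chr2:173354622-173354871 on the plus strand (CDCA7), chr2:135876444-135876693 on the minus strand (MCM6), chr21:36385142-36385391 on the plus strand (CHAF1B), chr2:148021552-148021801 on the minus strand (ORC4, 1 of its 2 windows) and chr16:88803539-88803788 on the plus strand (CDT1).
CDCA7: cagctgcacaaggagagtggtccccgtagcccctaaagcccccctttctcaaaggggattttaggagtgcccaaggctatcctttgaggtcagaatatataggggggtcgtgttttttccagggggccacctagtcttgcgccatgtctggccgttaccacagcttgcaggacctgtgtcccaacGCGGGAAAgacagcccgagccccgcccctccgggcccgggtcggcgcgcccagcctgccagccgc
MCM6: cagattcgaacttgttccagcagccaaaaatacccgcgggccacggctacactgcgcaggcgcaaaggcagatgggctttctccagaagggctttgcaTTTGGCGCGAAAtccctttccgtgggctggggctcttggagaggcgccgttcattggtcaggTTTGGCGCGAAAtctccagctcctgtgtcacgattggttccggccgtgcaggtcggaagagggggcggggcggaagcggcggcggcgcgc
CHAF1B: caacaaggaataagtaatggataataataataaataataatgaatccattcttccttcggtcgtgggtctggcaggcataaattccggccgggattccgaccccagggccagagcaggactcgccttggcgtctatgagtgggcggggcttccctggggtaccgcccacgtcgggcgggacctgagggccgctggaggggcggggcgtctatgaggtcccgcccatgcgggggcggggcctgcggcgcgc
ORC4: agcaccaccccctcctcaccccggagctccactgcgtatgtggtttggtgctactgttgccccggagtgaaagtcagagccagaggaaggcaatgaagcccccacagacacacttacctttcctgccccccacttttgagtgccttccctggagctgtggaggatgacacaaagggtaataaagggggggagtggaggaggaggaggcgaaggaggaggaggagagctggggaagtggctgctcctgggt
CDT1: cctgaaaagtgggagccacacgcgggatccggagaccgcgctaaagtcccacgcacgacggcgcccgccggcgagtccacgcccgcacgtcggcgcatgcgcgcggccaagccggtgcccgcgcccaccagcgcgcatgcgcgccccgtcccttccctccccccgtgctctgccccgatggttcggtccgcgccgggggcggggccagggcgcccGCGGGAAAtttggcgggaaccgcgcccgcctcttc
CDCA7 had 1 match, 65 bases before the start, and CDT1 had 1 match, 35 bases before the start. MCM6 had 4 matches, at 152, 148, 90 and 86 bases before the start, which overlap in pairs on opposite strands. CHAF1B and both ORC4 windows held none of these letters, from which nothing follows about E2F binding there.

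Most of the replication genes were lower in SCCs by a small amount. Of the 59, 52 had a ratio below 0 and 7 a ratio above 0, where 43.8% of the 13444 genes compared had a ratio below 0. The median log2 ratio was -0.14, with quartiles of -0.22 and -0.06, and that of all genes compared was 0.03. Summed over the 59 genes, the level was 5671 units in SCCs and 6368 units in non-SCCs. In RNA from a whole library, fewer cells in S phase and less replication mRNA per cell cannot be told apart.

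At least 1.2-fold lower in SCCs were 8 of the 59, a size that 7.59% of all genes compared reached in that direction, and at least 1.2-fold higher were 2, where 17.4% of all genes were. With the median ratio over all genes centred at 0, the numbers were 13 lower, where 9.67% of all genes were, and 1 higher, where 15.0% were. With the trend of ratios with level removed, 6 were at least 1.2-fold lower, where 10.9% of all genes were. In that setting 2 were higher, and the share of all genes that were higher was not computed. At 1.1-fold, 28 were lower, where 19.4% of all genes were, and 4 higher, where 31.8% were. None of the 59 was 1.5-fold lower, where 1.41% of all genes were, and none 1.5-fold higher, where 5.38% were. Thus 52 of the genes shared a direction while each of the 59 differed by under 1.5-fold. All 59 were at 16.8 units or more in both libraries. Over the 7531 genes with 16 or more units in each library, a subset chosen after seeing the data, 52.7% had a ratio below 0, 5.64% were 1.2-fold lower and 5.96% were 1.2-fold higher, with a median of -0.01.

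**Figure D1:**
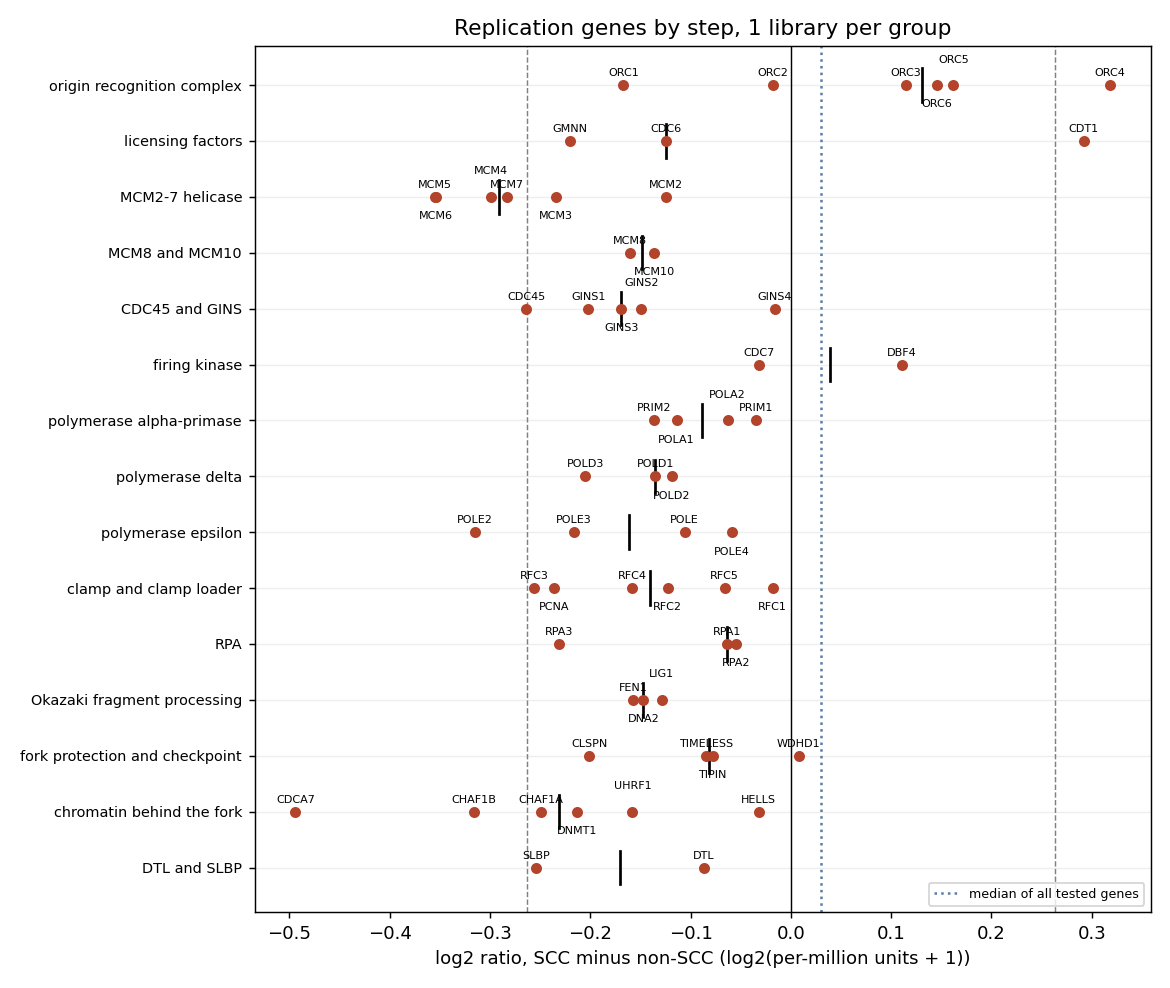
Log2 ratio (SCC minus non-SCC, log2(per-million units + 1)) of each of the 59 replication genes on the x axis, by step down the page, with 1 point per gene, black ticks at the step medians, dashed lines at 1.2-fold and a dotted line at the median of all genes compared (0.03). All 6 MCM2-7 genes lie left of 0, while ORC3, ORC4, ORC5, ORC6, CDT1 and DBF4 lie right of the dotted line.

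The origin recognition complex, the platform on which the helicase is loaded, held 4 of the 7 genes with a ratio above 0. ORC4, on chromosome 2 (147930396 to 148021551), had 58.7 units in SCCs and 46.8 in non-SCCs, a log2 ratio of 0.32, the highest of the 59. ORC5, which like ORC4 belongs to the AAA+ ATPase family, had 53.7 units in SCCs and 47.9 in non-SCCs. ORC6, the smallest subunit, had 78.2 units in SCCs and 70.6 in non-SCCs, and ORC3 had 44.4 units in SCCs and 41.0 in non-SCCs. These 4 subunits were thus higher in SCCs, by 8.48% (ORC3) to 25.2% (ORC4). ORC2 had 27.9 units in SCCs and 28.2 in non-SCCs, a ratio of -0.02. ORC1, the subunit whose amount is known to change through the cell cycle in human cells, was on the other side, with 56.8 units in SCCs and 63.9 in non-SCCs, a ratio of -0.17. The median over ORC2 to ORC6 was 0.15.

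The licensing factors were split. CDT1, which brings the helicase to ORC, lies on chromosome 16 (88803789 to 88809258) and had 48.4 units in SCCs and 39.3 in non-SCCs, a ratio of 0.29. GMNN, its inhibitor, on chromosome 6 (24774937 to 24786099), had 100.5 units in SCCs and 117.2 in non-SCCs, a ratio of -0.22. CDT1 was thus 23.0% higher and GMNN 14.3% lower in SCCs. The quotient of their levels was 0.481 in SCCs and 0.336 in non-SCCs, a difference of 0.51 between the 2 log2 ratios. CDC6, the ATPase that works with ORC during loading, had 38.3 units in SCCs and 41.8 in non-SCCs, a ratio of -0.12. DTL, which directs the destruction of CDT1 in S phase, had 60.2 units in SCCs and 64.0 in non-SCCs, a ratio of -0.09.

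The MCM2-7 helicase, the ring that unwinds DNA at the fork, was lower in all 6 subunits, with a median log2 ratio of -0.29, the lowest of the steps. Of all genes with a mean level of 100 units or more, like these 6, 71.0% were below 0 and 6.84% were 1.2-fold lower. With the trend of ratios with level removed, the MCM2-7 median was -0.20 and that of CDC45 and GINS -0.21. MCM5, on chromosome 22 (35400140 to 35455031), had 174.2 units in SCCs and 223.1 in non-SCCs. MCM6, on chromosome 2 (135839626 to 135876443), had 107.4 units in SCCs and 137.6 in non-SCCs. Both were 21.9% lower in SCCs, with ratios of -0.36 and -0.35. MCM4, on chromosome 8 (47960941 to 47978160), had 249.0 units in SCCs and 306.6 in non-SCCs, a ratio of -0.30. MCM7, on chromosome 7 (100092728 to 100101397), had 410.4 units in SCCs and 499.4 in non-SCCs, a ratio of -0.28. These were the 4 MCM genes at least 1.2-fold lower, of which MCM4 and MCM7 were at -0.21 and -0.20, short of 1.2-fold, with the level trend removed.

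MCM3 had 210.0 units in SCCs and 247.3 in non-SCCs, a ratio of -0.23. MCM2, the subunit that also binds histones at the fork, had 260.7 units in SCCs and 284.5 in non-SCCs, and its ratio of -0.13 was the closest to 0 of the 6. The 6 ratios spanned 0.23 on the log2 scale. Of the MCM relatives outside the ring, MCM8, a helicase with a role in recombination repair, had 51.7 units in SCCs and 57.9 in non-SCCs, a ratio of -0.16. MCM10, which helps to start the assembled helicase, had 34.6 units in SCCs and 38.1 in non-SCCs, a ratio of -0.14. The ORC2 to ORC6 median exceeded the MCM2-7 median by 0.44.

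**Figure D2:**
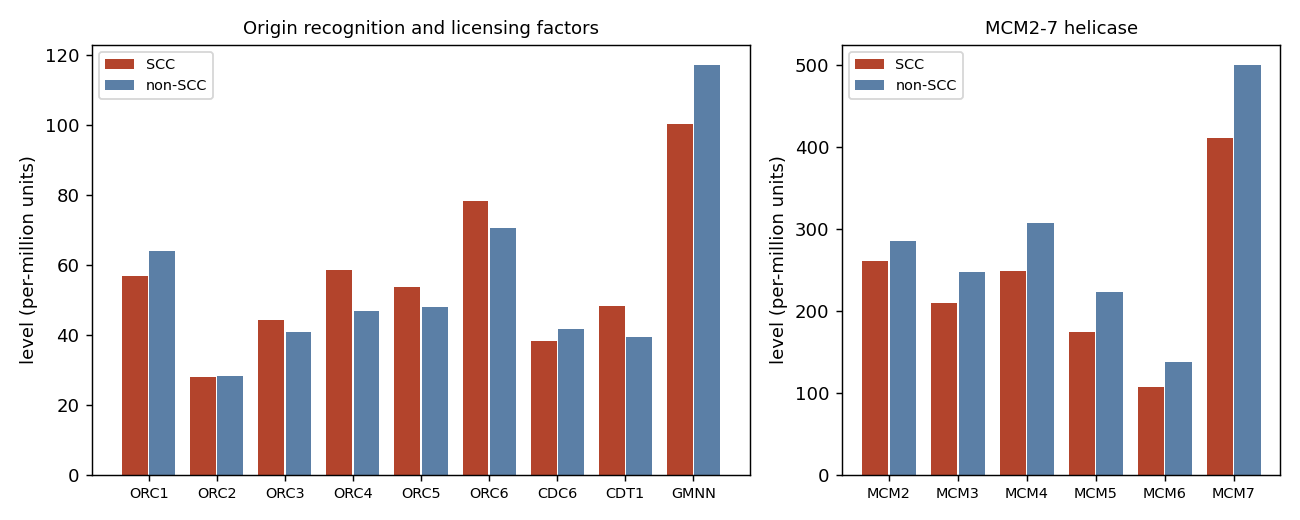
Level in per-million units (y axis) of the origin recognition and licensing genes (left panel) and of the MCM2-7 genes (right panel), with 1 bar per library, SCC left of non-SCC, and no error bars because each group has 1 library. The SCC bar is the lower for all 6 MCM genes and for ORC1, ORC2, CDC6 and GMNN, and the higher for ORC3, ORC4, ORC5, ORC6 and CDT1.

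CDC45 and the GINS complex, the partners that turn the loaded ring into a working helicase, were lower in 5 of 5 genes, where 43.8% of all genes were. Their median log2 ratio was -0.17. CDC45, on chromosome 22 (19479466 to 19520612), had 47.4 units in SCCs and 57.1 in non-SCCs, a ratio of -0.26, just past the 1.2-fold size. Among the GINS subunits, GINS1 had 40.6 units in SCCs and 46.8 in non-SCCs, and GINS3 had 16.8 units in SCCs and 19.0 in non-SCCs, with ratios of -0.20 and -0.17. GINS2 was near them, with 48.7 units in SCCs and 54.1 in non-SCCs. GINS4 stood at 49.2 units in SCCs and 49.8 in non-SCCs, a ratio of -0.02, so the 4 subunits of 1 complex were not equally lower in these libraries.

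The firing kinase had 1 subunit on each side of 0. Its catalytic subunit CDC7, which phosphorylates the MCM ring, had 54.5 units in SCCs and 55.7 in non-SCCs, a ratio of -0.03. Its activating subunit DBF4 had 48.3 units in SCCs and 44.6 in non-SCCs, a ratio of 0.11.

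The replicative polymerases were lower in 11 of 11 genes, where 43.8% of all genes were, with a median of -0.12. Of genes with 16 or more units in each library, 52.7% were lower. With the level trend removed, the medians were -0.09 for polymerase alpha-primase, -0.11 for delta and -0.09 for epsilon. In the polymerase alpha-primase complex, which lays down primers, the catalytic subunit POLA1 had 46.6 units in SCCs and 50.5 in non-SCCs, and the large primase subunit PRIM2 had 25.0 units in SCCs and 27.6 in non-SCCs. POLA2 had 49.1 units in SCCs and 51.4 in non-SCCs, a ratio of -0.06. The small primase subunit PRIM1 had 113.6 units in SCCs and 116.5 in non-SCCs, and its ratio of -0.04 turned to 0.03 with the level trend removed. The 4 ratios of polymerase alpha-primase lay between -0.14 and -0.04, with a median of -0.09.

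Polymerase delta copies mainly the lagging strand. Its catalytic subunit POLD1 had 73.3 units in SCCs and 80.6 in non-SCCs, POLD2 had 229.9 units in SCCs and 249.7 in non-SCCs, and POLD3 had 41.8 units in SCCs and 48.3 in non-SCCs. The 3 ratios lay between -0.20 and -0.12. Polymerase epsilon copies mainly the leading strand and was more uneven. POLE2, its second subunit, on chromosome 14 (49643555 to 49688214), had 22.4 units in SCCs and 28.1 in non-SCCs, a ratio of -0.32 and the only polymerase gene past 1.2-fold. The catalytic subunit POLE had 119.9 units in SCCs and 129.1 in non-SCCs, a ratio of -0.11. The histone-fold subunits differed from each other, POLE3 with 151.2 units in SCCs and 175.9 in non-SCCs, and POLE4 with 76.5 units in SCCs and 79.8 in non-SCCs.

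The sliding clamp PCNA, which tethers the polymerases to DNA, had 456.6 units in SCCs and 537.7 in non-SCCs and was 15.1% lower in SCCs. The loader that opens it was lower in 5 of 5 subunits, where 43.8% of all genes were. RFC3 had 65.9 units in SCCs and 78.8 in non-SCCs, a ratio of -0.26 that fell just short of 1.2-fold. RFC4 had 147.8 units in SCCs and 165.0 in non-SCCs, a ratio of -0.16, and RFC2 had 168.8 units in SCCs and 183.9 in non-SCCs, a ratio of -0.12. RFC5 had 92.9 units in SCCs and 97.3 in non-SCCs. RFC1, the large subunit, had 65.8 units in SCCs and 66.7 in non-SCCs, a ratio of -0.02 that became 0.02 with the level trend removed.

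Of the single-stranded DNA binding complex RPA, the smallest subunit RPA3 had 37.0 units in SCCs and 43.6 in non-SCCs, a ratio of -0.23. RPA1 had 99.6 units in SCCs and 104.2 in non-SCCs, and RPA2 had 223.2 units in SCCs and 232.0 in non-SCCs. Both had a ratio of -0.06, and that of RPA2 was 0.03 with the level trend removed. The genes that join the lagging-strand pieces, called Okazaki fragments, were close to each other. The flap nuclease FEN1 had 121.4 units in SCCs and 135.4 in non-SCCs, the ligase LIG1 had 57.4 units in SCCs and 62.9 in non-SCCs, and the nuclease-helicase DNA2 had 24.6 units in SCCs and 27.3 in non-SCCs. Their 3 ratios lay between -0.16 and -0.13.

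At the checkpoint step, CLSPN, the adaptor that passes the stalled-fork signal from ATR to CHEK1, had 31.6 units in SCCs and 36.5 in non-SCCs, a ratio of -0.20. TIMELESS and TIPIN, which form the fork protection complex together, moved alike. TIMELESS had 120.4 units in SCCs and 127.8 in non-SCCs, and TIPIN had 37.9 units in SCCs and 40.1 in non-SCCs, each with a ratio of -0.08. WDHD1, which links the helicase to polymerase alpha, had 25.2 units in SCCs and 25.1 in non-SCCs, and its ratio of 0.01 became -0.02 once the median ratio over all genes was centred at 0.

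Genes of chromatin and DNA methylation behind the fork were lower in 6 of 6 cases, where 43.8% of all genes were. Their median was -0.23. CDCA7, which works with the chromatin remodeller HELLS in the upkeep of DNA methylation, lies on chromosome 2 (173354872 to 173368997). It had 69.9 units in SCCs and 98.9 in non-SCCs, a ratio of -0.49 and the lowest of the 59. HELLS itself had 28.6 units in SCCs and 29.3 in non-SCCs, a ratio of -0.03, so these partners were far apart. Of the chromatin assembly factor that places new histones, the subunit CHAF1B, on chromosome 21 (36385392 to 36419015), had 44.6 units in SCCs and 55.8 in non-SCCs, a ratio of -0.32. Its partner CHAF1A had 86.8 units in SCCs and 103.4 in non-SCCs, a ratio of -0.25. The maintenance methyltransferase DNMT1 had 99.6 units in SCCs and 115.6 in non-SCCs, and UHRF1, which recruits it to hemimethylated DNA, had 140.7 units in SCCs and 157.0 in non-SCCs. SLBP, which binds the stem-loop of histone mRNAs, had 104.0 units in SCCs and 124.2 in non-SCCs, a ratio of -0.25.

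Ratios in these tables moved with level, and the replication genes were compared within levels. Among the 59, the mean log2 level and the log2 ratio had a Pearson r of -0.29 and a Spearman rho of -0.27, across genes that share the same 2 libraries. Over all genes compared, the Spearman rho was -0.31. Of the 21 members with a mean level of 100 units or more, 21 had a ratio below 0, with a median of -0.16, where 71.0% of the 1623 genes of that level were below 0, with a median of -0.08. Of the 18 members from 50 to below 100 units, 15 were below 0, with a median of -0.11, where the 1848 genes of that level had a share of 55.8% and a median of -0.02. Of the 20 members from 16 to below 50 units, 16 were below 0, with a median of -0.13, where the 4278 genes of that level had a share of 43.6% and a median of 0.03. In each of the 3 levels the member median was below that of all genes of the level. With the trend removed, the ORC median was 0.14 and the median of clamp and loader genes -0.06.

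Some gene models share sequence or position with others. In the GENCODE 29 annotation, 13 of the 59 overlapped another gene on the same strand, 25 overlapped a gene on the opposite strand and 7 had a pseudogene named after them, among them PCNA with 3 and RPA2 with 3. Because the counting was not stated, values of these genes are less certain, including ORC4, which overlaps MBD5 and ACVR2A on the opposite strand, CHAF1B, which overlaps MORC3 on its own strand, and MCM7, which overlaps AP4M1. Over the 22 members with none of these, the median log2 ratio was -0.13.

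The E2F-type letters were more frequent in the promoter windows of the replication genes than in those of protein-coding genes at large. They occurred in 29 of 67 member windows, a share of 43.3%, against 4.08% of the 22049 windows of protein-coding genes. All 4 MCM2-7 genes with a window, MCM2, MCM3, MCM6 and MCM7, held a match, as did all 3 licensing factors, 3 of 4 genes of CDC45 and GINS and 3 of 4 polymerase epsilon genes. Only ORC3 of the 6 ORC genes did. The 28 members with a match had a median log2 ratio of -0.15 and the 24 without one a median of -0.12. The CCAAT box, the letters CCAAT on either strand, occurred in 52.2% of member windows and 34.7% of all windows. The cell cycle homology letters TTTGAA, known from promoters of mitotic genes, occurred in 2 of 67 member windows, a share of 2.99%, and in 12.5% of all windows. These matches describe letters in a window and are not binding sites.

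**Figure D3:**
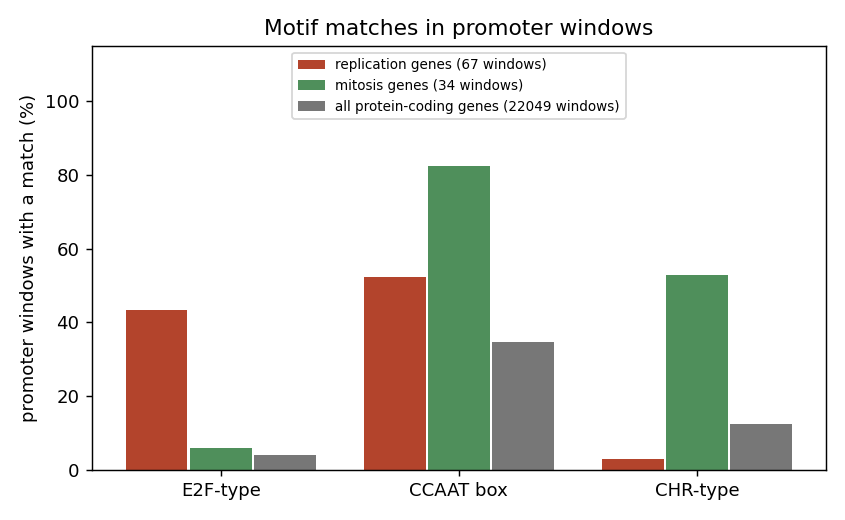
Share of promoter windows (y axis, %) with a match to the E2F-type, CCAAT box and CHR-type (TTTGAA) letters, for replication, mitosis and all protein-coding genes. Genes without a window are left out: the windows are 67 of 52 replication genes, 34 of 25 genes from the list of 30 mitosis genes, and 22049 of protein-coding genes. The E2F-type share is 43.3%, 5.88% and 4.08% in these 3 sets, and the CHR-type share is 2.99%, 52.9% and 12.5%.

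The direction was less uniform in 51 further replication genes, which include regulators of firing, checkpoint kinases and histone chaperones. They were taken from general knowledge of the pathway, but with earlier results of these data known. Of these 51, 30 had a ratio below 0, where 43.8% of all genes were, and 21 a ratio above 0, with a median of -0.09. Of genes with 16 or more units in each library, as most of the 51 had, 52.7% were below 0. At 1.2-fold, 2 were lower, where 7.59% of all genes were, and 2 were higher, where 17.4% were. FAM111A, a protease that binds PCNA and acts at stalled forks, had 20.3 units in SCCs and 9.80 in non-SCCs, a ratio of 0.98 and the only one of the 110 replication genes past 1.5-fold. PRIMPOL, which restarts synthesis ahead of lesions, had 21.9 units in SCCs and 17.9 in non-SCCs, a ratio of 0.27. RBX1, the RING subunit of cullin ubiquitin ligases, had 114.4 units in SCCs and 140.5 in non-SCCs, and RNASEH2C, a subunit of the nuclease that removes RNA from DNA, had 36.7 units in SCCs and 44.7 in non-SCCs. Their ratios were -0.29 and -0.28.

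Genes that supply deoxynucleotides to the fork had 9 of 11 ratios below 0, where 43.8% of all genes were. Their median was -0.08, with none at 1.2-fold. The largest difference was that of DUT, which removes dUTP, with 84.8 units in SCCs and 97.7 in non-SCCs, a ratio of -0.20. Genes of mitosis stood on the other side, with 30 of 30 ratios above 0, where 56.2% of all genes were, a median of 0.23, and 13 at least 1.2-fold higher, where 17.4% of all genes were. Among them the phosphatase CDC25C had 29.3 units in SCCs and 22.4 in non-SCCs, and the kinase PLK1 had 245.4 units in SCCs and 198.4 in non-SCCs. The mitosis median exceeded the replication median by 0.36 on the log2 scale. Both lists were chosen with earlier results of these data known, so their contrast is a description and not a test. The lowest mitosis ratio, 0.02, was above 53 of the 59 replication ratios.

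**Figure D4:**
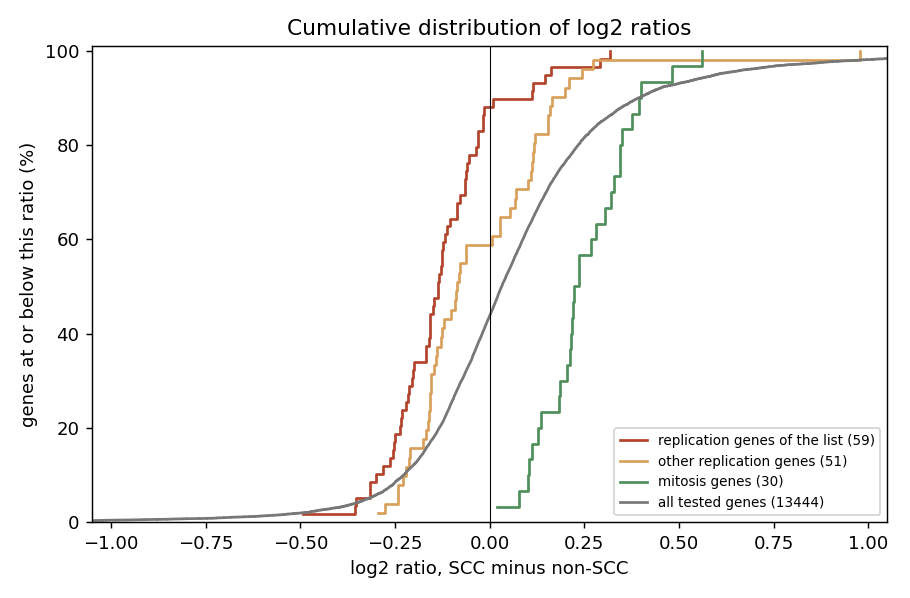
Share of genes (y axis, %) at or below each log2 ratio (x axis, SCC minus non-SCC) for the 59 replication genes, the 51 further replication genes, the 30 mitosis genes and all 13444 genes compared. The replication curve reaches 88.1% at a ratio of 0, the further replication genes 58.8%, all genes 43.8% and the mitosis genes 0%.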

How the data were processed

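RNA of SK-ES-1 slow-cycling (SCC) and non-slow-cycling (non-SCC) cells was profiled in 1 library each, made with a stranded kit that selects polyadenylated mRNA, per the labels' protocols. The deposited values are called normalized per the file headers, and were taken as log2 values from the numbers themselves: the largest were 15.6 and 15.2, and 2 to the power of each value minus 1 summed to 983638 in SCCs and 984120 in non-SCCs. Per the submitters' processing notes the genome build was hg38. Aligner, counter and annotation were not given in the sources used here. The headers call the libraries LRC and non-LRC, so the direction of each ratio rests on the sample each table was deposited for.

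Lines of 1 gene ID were summed, which left 53737 genes from 53826 lines. Genes with at least 1 unit in a library, 13444 in all, were compared, with a pseudocount of 1, which understates the difference of low genes. No scaling was applied. The 1.2-fold size was counted, beside its share among all genes. The 59 members and the other lists were chosen with earlier results of these data known. All 59 members could be named, and from the other lists the up to 4 genes with the largest ratios and those past 1.2-fold. Read depth was unknown, and all 13 protein-coding genes of mitochondrial DNA were listed at 0. The level trend was a running median over 501 genes. Python 3.11.15, pandas 2.3.3 and scipy 1.17.1 were used. The recovery of median log2 ratios was checked on simulated data with symmetric noise, which tests the arithmetic alone and not these libraries. Counts past a fold size were not checked.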

Additional observations from a re-analysis of the deposited data

How the results depend on the processing

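The other filters, pseudocounts and gene class cannot turn the sign of these protein-coding genes of middle to high level. Under the settings that can, 53 members were below 0 with centring, 52 with upper quartile scaling and 50 with the level trend removed, against 52 as reported, and PRIM1, RFC1, RPA2 and WDHD1 changed sign in at least 1 of them. With the median over all genes centred at 0, the members' median was -0.17, with 13 at least 1.2-fold lower (9.67% of all genes) and 1 higher (15.0% of all genes), and the further replication genes had a median of -0.12 with 4 lower. With the level trend removed, those medians were -0.11 and -0.06. In that setting 6 members were at least 1.2-fold lower (10.9% of all genes) and 2 higher, and 3 further replication genes were lower. The share of all genes that were higher was not computed with the level trend removed. At 1.1-fold, 28 members were lower (19.4% of all genes) and 4 higher (31.8% of all genes), and at 1.5-fold 0 were lower and 0 higher. A restriction to the 22 members with no overlapping gene or named pseudogene was added after seeing the data. Over these the median was -0.13 and 4 were 1.2-fold lower (7.59% of all genes). No paired analysis was possible because each group has 1 library. Without replicates or read counts, no error can be put on any ratio.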
